A study of Mus musculus with 5 samples.

Results

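The 9 genes described here encode the Fos proteins (Fos, Fosb, Fosl1 and Fosl2), the Jun proteins (Jun, Junb and Jund) and the related factors Maff and Atf3. They were picked by name, taking for each gene the feature that carries its symbol alone and is brightest over all arrays, and each of the 9 had 1 such feature. They are 9 of 19938 genes measured in mouse embryonic stem cells (strain C57BL/6) that had not been differentiated. The cells were Mkl2-/- (3 arrays) or wild type (2 arrays), each array from an independent culture. Mkl2, now called Mrtfb, encodes a myocardin-related coactivator of serum response factor (SRF), and the study asks how its loss bears on TGF-beta signalling. All cultures of both genotypes grew in serum with leukaemia inhibitory factor on mouse embryonic fibroblast feeders. They were trypsinized and left for 1 hour for the feeders to attach before the floating cells were lysed. The labels do not say whether each genotype is 1 cell line or several, so p-values measure the spread between cultures.

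Fos and Jun proteins are basic leucine zipper factors that bind DNA as pairs, together called AP-1. Fos proteins pair with Jun proteins, while Jun proteins can also pair with each other. Fos, Fosb, Jun, Junb, Maff and Atf3 are immediate early genes, whose transcription rises within minutes when serum or stress reaches a cell. At the Fos gene, SRF acts with ternary complex factors of the Elk group on a serum response element, and CREB-type factors act on a cyclic AMP response element near the start site.

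The stretches just before the start sites of the genes that fell are shown so that the letters such factors are known to read can be looked for in them. RefSeq windows (GRCm38.p6) were found for 8 of the 9 genes, and the 200 bases before the annotated start were searched on both strands. Capitals mark a match to any of TGACGTCA (the full cyclic AMP response element), TGACGT (its longer part, contained in it), TGANTCA (an AP-1 site), the CArG box (the SRF site), AGGAAG or CCGGAA (Ets-type sites) and TATAAA. Each line is read along the gene's own strand.
Fos, chr12:85473690-85473889, plus strand: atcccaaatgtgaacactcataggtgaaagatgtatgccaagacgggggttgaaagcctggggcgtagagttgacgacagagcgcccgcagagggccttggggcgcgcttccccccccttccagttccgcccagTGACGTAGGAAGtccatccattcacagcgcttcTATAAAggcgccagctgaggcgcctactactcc
Fosb, chr7:19310046-19310245, minus strand: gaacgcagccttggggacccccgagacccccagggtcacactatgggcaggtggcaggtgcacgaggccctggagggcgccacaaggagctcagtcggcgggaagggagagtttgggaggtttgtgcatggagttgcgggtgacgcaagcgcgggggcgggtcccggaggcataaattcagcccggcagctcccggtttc
Maff, chr15:79347320-79347519, plus strand: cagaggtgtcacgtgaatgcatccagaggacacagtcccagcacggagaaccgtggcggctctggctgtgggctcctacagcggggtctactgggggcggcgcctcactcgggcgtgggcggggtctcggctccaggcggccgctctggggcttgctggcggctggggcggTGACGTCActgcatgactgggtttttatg
Atf3, chr1:191183334-191183533, minus strand: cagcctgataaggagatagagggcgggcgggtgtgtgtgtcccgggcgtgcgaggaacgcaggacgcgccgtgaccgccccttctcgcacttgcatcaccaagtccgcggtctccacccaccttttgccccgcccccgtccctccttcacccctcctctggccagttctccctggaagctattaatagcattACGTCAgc

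TGACGT or its reverse stood in the windows of 3 genes, Fos, Maff and Atf3, against 6.62% of all 27025 genes with such a window. In Fos it lay at bases -66 to -61 from the start and ran directly into an AGGAAG at -60 to -55, with TATAAA at -33 to -28. In Maff it formed the full TGACGTCA at -29 to -22, in 1 of 3 annotated windows, and 1.69% of all genes hold those letters. In Atf3 it lay at -8 to -3. The Jun, Fosl2 and Jund windows and that of Fosb held none of the searched letters, and Junb held 1 AGGAAG. Another Maff window, not shown, held AGGAAG at -185 to -180, so 3 of the 8 genes have these letters, against 27.3% of all genes. No CArG box was found in the windows of these genes, and it occurs in 1.32% of all genes. A match is a description of letters, and a window without one says nothing of elements that lie outside it. Only exact letters were searched, so variants such as TGACATCA in the Jun window were not counted.

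Fos and Fosb were each about 1 log2 unit lower in Mkl2-/- cells, Atf3 and Maff were also lower, and the Jun genes, Fosl1 and Fosl2 did not pass the test. By limma with Benjamini-Hochberg adjustment over all genes, 4 of the 9 fell, 0 rose and 5 did not pass an adjusted p of 0.05. Over all genes tested, 6.28% passed as lower and 2.99% as higher, and among genes whose mean lay above background 8.78% and 4.15%. Median differences (Mkl2-/- minus wild type, log2) were -0.25 over the 9 genes and 0.02 over all genes. All 9 genes lay above the background level of 7.30 on every array, set so that 95% of 1027 olfactory receptor genes have a mean at or under it. The count of 4 dropped to between 0 and 2 when any 1 array was left out, as set out with the tests of the single genes. With 10 ways to split 5 arrays, an exact two-sided rank-sum test of a single gene cannot give a p below 0.2.

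**Figure D1:**
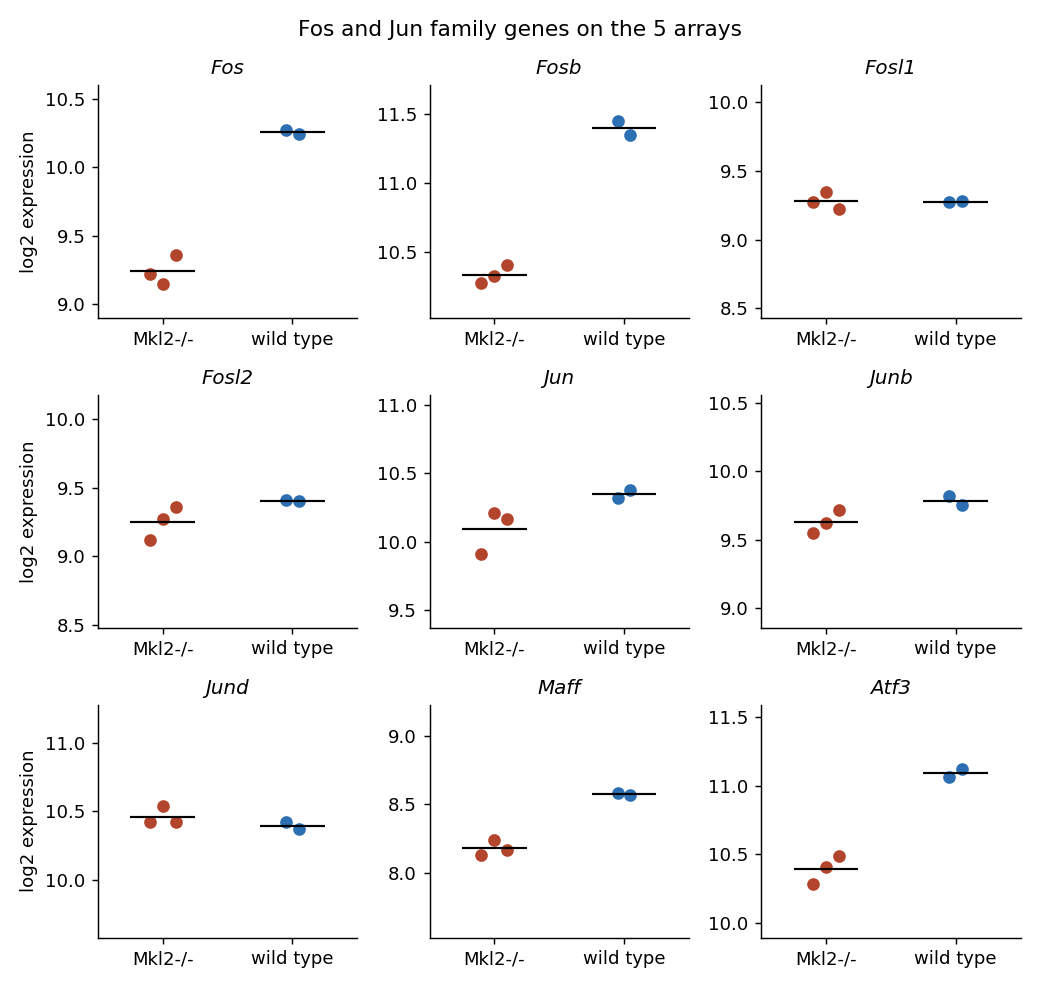
Log2 expression of each gene on the 3 Mkl2-/- arrays (red) and the 2 wild-type arrays (blue), with a line at each group's mean; every panel spans the same number of log2 units. Fos, Fosb, Atf3 and Maff show a gap between the groups that is wider than either group's spread, while Fosl1 and Jund overlap.

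Of the Fos proteins, Fos is the founding immediate early member. Its log2 expression was 9.22, 9.15 and 9.36 in Mkl2-/- replicates 1, 2 and 3, against 10.27 and 10.24 in wild type. All Mkl2-/- arrays were below both wild-type arrays, and the wild-type arrays lay closer together than the Mkl2-/- arrays. The difference was -1.01 ± 0.07 (moderated SE, n = 3 and 2), which is 2.02-fold lower, with a limma adjusted p of 0.0108. Fosb encodes a Fos relative that is also induced at once by serum. It read 10.27, 10.32 and 10.40 in Mkl2-/-, against 11.45 and 11.35 in wild type, so the groups were far apart relative to their spread. Fosb fell 2.10-fold, by -1.07 ± 0.05 on the log2 scale (limma adjusted p = 0.00787), and its difference ranked 96 from the lowest among the 19938 genes.

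Fosl1 and Fosl2 encode Fos proteins that lack the strong activation domain of Fos and that typically appear later after a stimulus. Fosl1 read 9.27, 9.35 and 9.22 in Mkl2-/-, against 9.27 and 9.28 in wild type, and the groups overlapped. Its difference was 0.01, with a 95% interval from -0.12 to 0.13 (limma adjusted p = 0.974). Fosl2 read 9.12, 9.27 and 9.36 in Mkl2-/-, against 9.41 and 9.40 in wild type. The groups did not overlap, but the Mkl2-/- arrays were spread widely and the highest lay next to wild type. The difference of -0.16, with an interval from -0.38 to 0.07, did not pass (limma adjusted p = 0.367).

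The 3 Jun genes, the obligate partners of the Fos proteins, gave no call. Jun, which can also activate transcription as a pair of its own, read 9.91, 10.21 and 10.17 in Mkl2-/-, against 10.32 and 10.38 in wild type. The groups did not overlap, Mkl2-/- replicate 1 stood below the other 2, and the difference of -0.25 had an interval from -0.56 to 0.05 (limma adjusted p = 0.301). Junb, like Jun an immediate early gene, read 9.55, 9.62 and 9.72 in Mkl2-/-, against 9.82 and 9.75 in wild type. The groups did not overlap, but the highest Mkl2-/- array lay just under the lower wild-type array, and the difference was -0.16, with an interval from -0.33 to 0.02 (limma adjusted p = 0.261). Jund, the most constant of the Jun genes in most cells, read 10.42, 10.54 and 10.42 in Mkl2-/-, against 10.42 and 10.37 in wild type. These overlapped, with a difference of 0.07 and an interval from -0.07 to 0.20 (limma adjusted p = 0.436). The intervals of Jun, Fosl2 and Junb still allow a modest fall. Whether the fall of Fos differs from the difference of any Jun gene was not tested.

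Atf3 and Maff are stress- and serum-induced basic leucine zipper genes outside the Fos and Jun families proper. Atf3 encodes a factor that pairs with Jun proteins and often represses. It read 10.28, 10.41 and 10.49 in Mkl2-/-, against 11.06 and 11.12 in wild type, with no overlap. Atf3 fell 1.62-fold, by -0.70 ± 0.07 on the log2 scale (limma adjusted p = 0.0193). Maff encodes a small Maf protein, which has no activation domain of its own and works through its partner. It read 8.13, 8.24 and 8.17 in Mkl2-/-, against 8.58 and 8.57 in wild type. The wild-type arrays were almost equal and the Mkl2-/- arrays stood clearly below them. Maff fell 1.31-fold, by -0.40 ± 0.04 on the log2 scale (limma adjusted p = 0.0165), the smallest of the 4 falls.

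**Figure D2:**
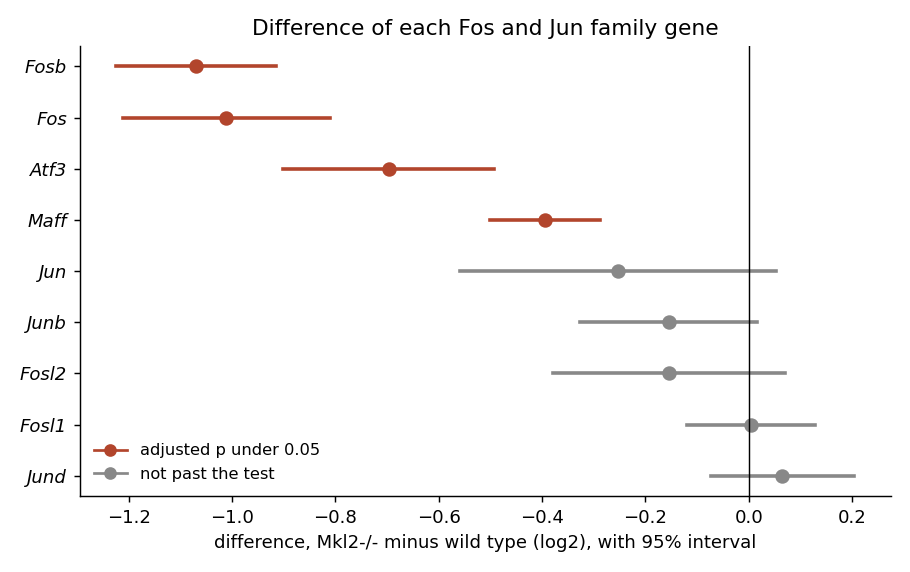
Difference of each gene in log2 units, Mkl2-/- minus wild type, as a point with its 95% interval from the limma fit; red marks an adjusted p under 0.05. Fosb and Fos sit near -1, Atf3 at -0.70 and Maff at -0.40, while the intervals of the other 5 genes include 0.

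Across the 9 genes, 7 differences were negative and 2 positive, and in 7 genes the arrays of the groups did not overlap, all with Mkl2-/- lower. Over all genes, 16.7% were lower without overlap and 33.6% did not overlap in either direction. Of the Mkl2-/- arrays, replicate 1 was the lowest in 7 of the 9 genes, in Jund tied with replicate 3. Replicates 2 and 3 were the lowest alone in 1 each. Replicate 3 was the highest in 5 and replicate 2 in 4.

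**Figure D3:**
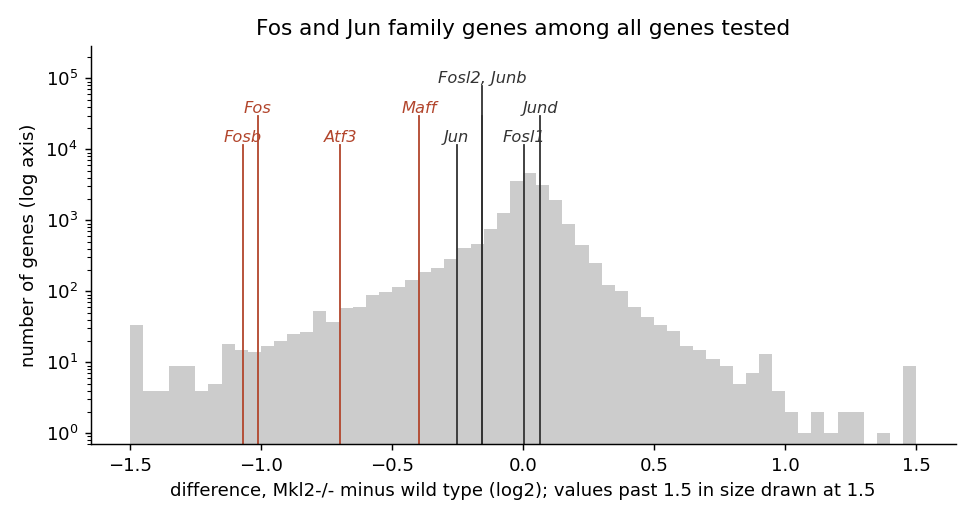
Histogram of the differences of all 19938 genes in log2 units, Mkl2-/- minus wild type, with the number of genes on a log axis and a line at each Fos and Jun family gene (red where the adjusted p is under 0.05). Fosb, Fos and Atf3 stand in the sparse left tail, Fosl1 and Jund in the bulk, and Maff, Jun, Junb and Fosl2 between them.

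The falls of single genes were tested with each array left out. Leaving out a wild-type array leaves 1 wild-type array, which is then assumed to vary like the Mkl2-/- arrays. All 4 genes kept a negative difference each time, and the calls varied. Fosb passed in 3 of 5 such fits (adjusted p from 0.0364 to 0.0623), Fos in 2 (0.0357 to 0.0829), Maff in 1 (0.0408 to 0.104) and Atf3 in 0 (0.0532 to 0.121). Without wild-type replicate 2 none of the 4 passed, nor did any other gene of the table (limma; 4411 genes had an unadjusted p under 0.05), so that every call given here, on list genes too, was lost there. No other gene of the 9 passed in any of these fits. The sizes moved little, with Fos between -1.07 and -0.97 and Fosb between -1.12 and -1.02.

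**Figure D4:**
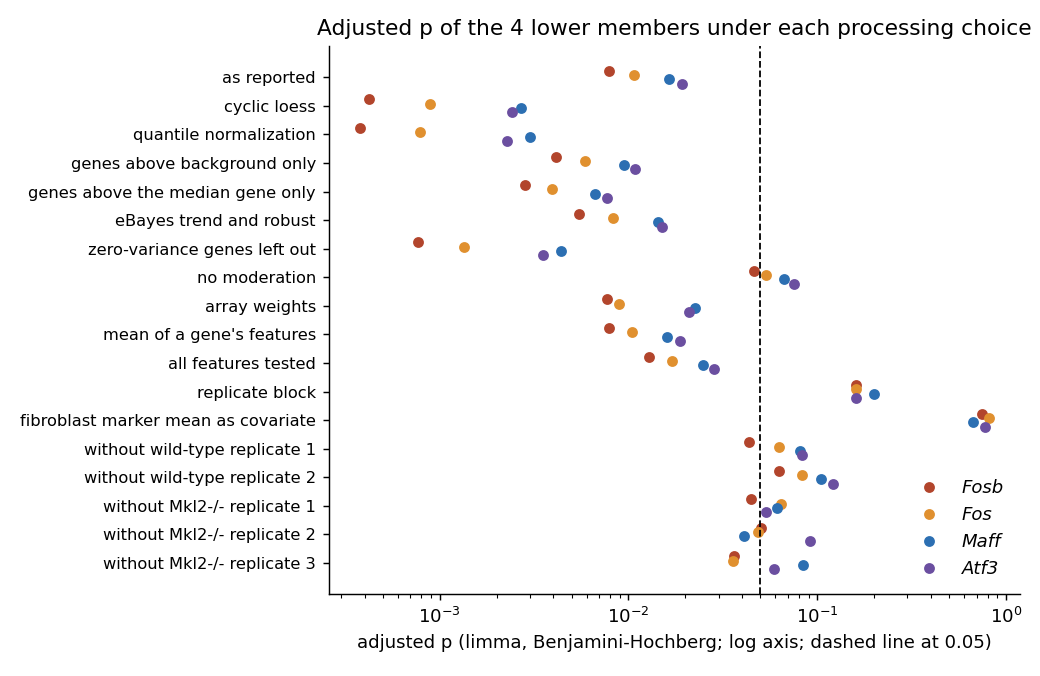
Adjusted p of Fosb, Fos, Maff and Atf3 (log axis) under each processing choice and with each array left out; the dashed line marks 0.05. All 4 points lie left of the line in the reported fit, and most lie right of it when an array is left out.

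The genes lie on 8 different chromosomes, Junb and Jund sharing chromosome 8. The 10 nearest genes above background around Fos, on chromosome 12, had a median difference of -0.05, and those around Fosb, on chromosome 7, 0.08. Around Maff, on chromosome 15, the median was 0.05. Atf3 lies on chromosome 1, whose 757 other genes above background had a median of -0.17 (log2), and its 10 neighbours had a median of -0.10. The other chromosomes that carry these genes had medians from 0 to 0.04. Csrp1, Creb1, Elk4, Cop1, Hspd1 and Col3a1, named below, also lie on chromosome 1. The part of a chromosome-wide shift in their differences was not tested. The lowest single neighbour was -0.28 at Fos, -0.17 at Fosb, -0.09 at Maff and -0.33 at Atf3, each closer to 0 than the gene it adjoins. Of each 10 neighbours, 1 passed as lower at Fos and at Atf3, and 1 as higher at Fosb and at Maff.

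The genes whose array profile was closest to each falling gene were found from the root mean square difference of the 5 values, each gene centred on its own mean. For Fos these were Gpm6b (0.04), Ctps2 (0.05) and Actc1 (0.05), and for Fosb Ms4a4d (0.04), Eno3 (0.05) and Actc1 (0.05). Actc1, which encodes cardiac alpha-actin, appeared for both. It read 8.36, 8.29 and 8.51 in Mkl2-/-, against 9.54 and 9.44 in wild type. For Maff the closest were Itga5 (0.01), Cntfr (0.01) and Arsa (0.01), and for Atf3 Tuft1 (0.03), Gfpt1 (0.04) and Csrp1 (0.04). With 5 arrays in 2 groups, these distances mostly reflect a fall of like size.

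Among the possible partners of these genes within the wider leucine zipper class 1 gene, Bach2, passed the test, and 9.27% of all genes passed in either direction. Of 17 other genes whose proteins pair or compete with AP-1, 0 rose, 0 fell and the median difference was 0.03, against 0.02 over all genes, by the limma fit. At an unadjusted p under 0.05 there were 4: Atf1 (0.27), Crem (0.15), Jdp2 (-0.28) and Creb1 (-0.19). With the features of each gene averaged, 4607 of all 19938 genes had such a p in the limma fit, a share close to 4 of 17. Jdp2, a repressor that pairs with Jun proteins, read 7.95, 8.06 and 8.10 in Mkl2-/-, against 8.39 and 8.24 in wild type. Jdp2 lies on chromosome 12 with Fos, and its difference is that of the lowest neighbour of Fos. Of 11 Maf and cap-n-collar genes, Bach2 fell and the other 10 did not pass. Bach2, a repressor that pairs with small Maf proteins such as Maff, read 8.17, 8.13 and 8.23 in Mkl2-/-, against 8.69 and 8.72 in wild type (-0.53 ± 0.04, limma adjusted p = 0.0101). Mafk, the small Maf gene nearest to Maff in size of difference, was at -0.40 without passing (limma adjusted p = 0.0637), Nfe2l1 at -0.12 and Mafg at 0.06.

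Upstream of the Fos genes, 4 of 19 kinase, ternary complex factor and SRF-partner genes fell and 0 rose. The 4 include Mkl2, the deleted gene. For this list and those below, 6.28% of all genes tested passed as lower and 2.99% as higher. Among genes above background these shares were 8.78% and 4.15%. Rps6ka3 encodes a kinase that acts below ERK on CREB and Fos proteins. It read 9.63, 9.72 and 9.48 in Mkl2-/-, against 11.55 and 11.57 in wild type (-1.95 ± 0.08, limma adjusted p = 0.00624). Rps6ka3 lies on chromosome X, as do Gpm6b, Ctps2 and Vegfd, which also fell, and Elk1, which did not differ. Whether the genes around Rps6ka3 fell as well was not tested. Map2k4, which activates the Jun kinases, read 10.97, 10.99 and 10.98 in Mkl2-/-, against 11.08 and 11.09 in wild type. This fall of 0.105 on the log2 scale is 1.08-fold, and its call rests on a very small spread within each group. Elk3 read 8.88 on all Mkl2-/- arrays and 8.95 on both wild-type arrays, a call that rests on the absence of any spread at 2 decimals. Elk1 read 10.23 on all 5 arrays, Elk4 differed by -0.30 (limma adjusted p = 0.115) and Srf by -0.16 (limma adjusted p = 0.0997). Mkl2 itself read 9.32, 9.32 and 9.09 in Mkl2-/-, against 9.80 and 9.75 in wild type, on its brightest feature (limma adjusted p = 0.048). Its other 2 features differed by -0.98 and -0.83, and in a limma fit of all 35556 features these passed (adjusted p = 0.0309 and 0.0205) while the brightest did not (adjusted p = 0.067). The labels do not place that feature inside or outside the deletion, so what signal is left checks nothing. Mkl1, now Mrtfa, differed by 0.01.

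Among 13 genes for AP-1 turnover and cofactors, 4 fell and 1 rose. Zfp36 (-0.44 ± 0.05), Zfp36l1 (-0.48 ± 0.06) and Zfp36l2 (-0.25 ± 0.03) encode proteins that bind AU-rich elements and speed the decay of short-lived transcripts such as that of Fos. All 3 fell, with limma adjusted p-values of 0.0221, 0.0239 and 0.0285. Zfp36 read 10.19, 10.27 and 10.26 in Mkl2-/-, against 10.62 and 10.74 in wild type. Cop1, a ubiquitin ligase gene whose product targets Jun, also fell, by 0.40 on the log2 scale, and lies on chromosome 1. Ncoa3, a coactivator gene, rose by 0.34 ± 0.04 (limma adjusted p = 0.0226).

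Of 29 textbook AP-1 target genes, 6 fell, 2 rose and 21 did not pass, with a median of -0.03. Those that fell were Tgfb1 (-0.61 ± 0.03), a TGF-beta ligand gene, Ccnd1 (-0.32 ± 0.02), which encodes cyclin D1, Mmp9 (-0.30 ± 0.03), Vegfa (-0.40 ± 0.04), Vegfd (-0.35 ± 0.05) and the phosphatase gene Dusp1 (-0.44 ± 0.05). Mt1, a metallothionein gene, rose by 0.49 ± 0.04 and the integrin gene Itgb4 by 0.35 ± 0.04. The list was chosen with earlier results of these data known. Plau, Plaur and Mmp13, well-known targets that encode a protease, its receptor and a collagenase, were at -0.03, 0.01 and -0.03 and did not pass. Plau and Mmp13 lay below background on all arrays, where a change would hardly show, and 22 of the 29 targets had a mean above background.

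Some other serum response genes also fell. Of 31 immediate early genes outside the 9, 10 fell, 0 rose and 21 did not pass, with a median of -0.16. Over all genes tested 6.28% passed as lower, and 8.78% of those above background. Zfp36 and Dusp1, already counted in the lists above, are among those that fell. Myc (0.22) and Arc (0.26) were among those that did not pass. Gadd45b (-0.94 ± 0.05), Ccn1 (-0.84 ± 0.06), Egr2 (-0.81 ± 0.07) and Klf4 (-0.69 ± 0.03) had the smallest p-values, with limma adjusted p-values of 0.00787, 0.00979, 0.0141 and 0.00665. Egr1, a gene that responds to serum with Fos, read 10.02, 10.22 and 10.26 in Mkl2-/-, against 10.92 and 10.85 in wild type.

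**Figure D5:**
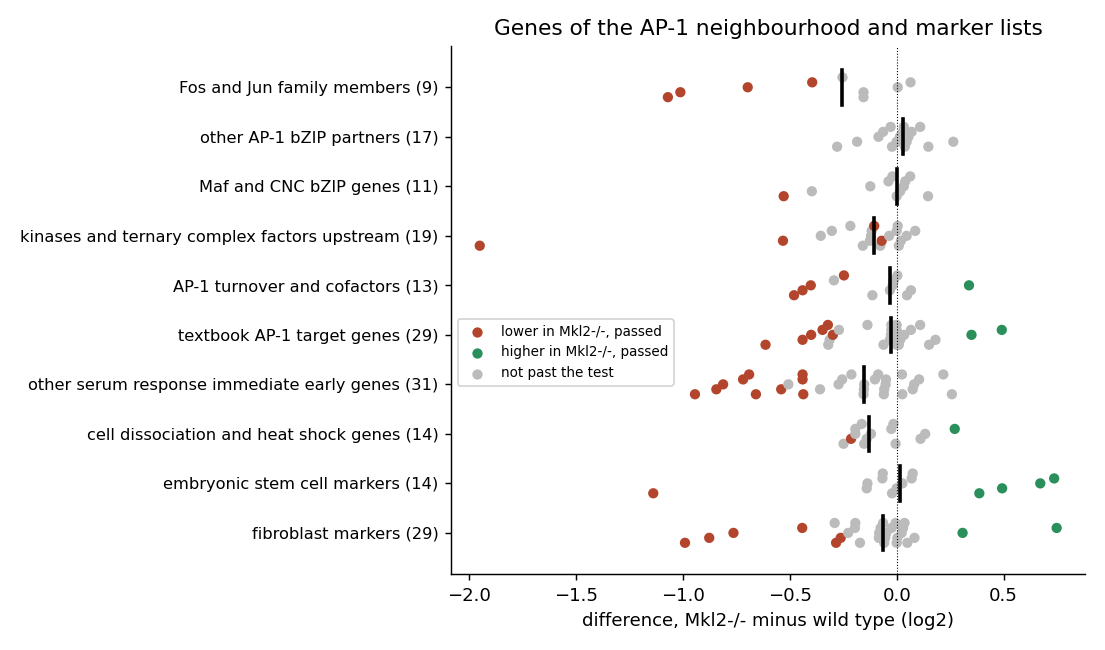
Difference of every measured gene in log2 units, Mkl2-/- minus wild type, by list, with the number of genes in brackets and a black bar at each list's median; red and green mark genes that passed as lower and higher. Red points number 4 of 9 in the Fos and Jun family, 10 of 31 among the other immediate early genes and 0 of 17 among the other AP-1 partners.

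Measures of cell makeup and handling moved with genotype as follows. Embryonic stem cell markers were present in all cultures, with Pou5f1 at 12.54, 12.52 and 12.52 in Mkl2-/-, against 12.52 and 12.48 in wild type. Of 14 such markers 4 rose and 1 fell. Those that rose were Dppa4 (0.74 ± 0.06), Fgf4 (0.67 ± 0.06), Dppa5a (0.49 ± 0.06) and Utf1 (0.39 ± 0.05), and Nanog fell (-1.14 ± 0.07). Of 29 fibroblast markers, 24 lay above background, 6 fell, 2 rose and 21 did not pass. Their median difference was -0.06, against 0.02 over all genes. Their mean log2 level per array was 7.92 to 7.96 in Mkl2-/-, against 8.07 to 8.08 in wild type, so the groups did not overlap. Igfbp4 (-0.99 ± 0.05), Fstl1 (-0.88 ± 0.06), Has2 (-0.76 ± 0.05) and S100a6 (-0.44 ± 0.03) had the smallest p-values and fell, while Pdgfra (0.75) and Twist1 (0.31) rose. The collagen genes did not pass. Col1a1 read 9.06, 8.99 and 9.07 in Mkl2-/-, against 9.42 and 9.24 in wild type, and Col3a1 8.17 on all Mkl2-/- arrays, against 8.17 and 8.07. Fibroblasts express the immediate early genes too. In bulk RNA fewer cells of a type and less RNA per cell cannot be told apart. With the marker mean as a covariate, none of the 9 genes passed (3 had an unadjusted p under 0.05, as did 1295 of all genes). That mean separates the groups itself, so this fit cannot tell genotype and marker level apart. Of 14 cell dissociation and heat shock genes, Hspd1 fell and Hspb1 rose, with a median of -0.13. Their mean log2 level was 10.66 to 10.68 in Mkl2-/-, against 10.72 to 10.76 in wild type. The part of the dissociation response in the falls was not tested.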

How the data were processed

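The log2 values were deposited by the authors. The submitters' processing notes name RMA and Affymetrix Expression Console 1.1; RMA adjusts background, quantile-normalizes and summarizes probes, and compresses the differences of dim features. Total RNA was amplified to biotin-labelled cDNA, per the labels' protocols. Values carry 2 decimals and run from 3.39 to 14.26. Of 35556 features, 21789 had 1 symbol in the platform annotation, 1621 several and 12146 none; the brightest per symbol gave 19938 genes. Array numbers limit the precision. Mkl2-/- was compared with wild type by limma 3.58.1 (R 4.3.3; lmFit, eBayes; 3 residual and 0.885 prior degrees of freedom), two-sided, with Benjamini-Hochberg adjustment over all genes. At 2 decimals 776 genes had no spread within either group. The fit was tested on simulated data. The 9 genes, the lists and the tests were chosen with earlier results of these data known. From each list the text names up to 4 genes of smallest p. Further ones (Cop1, Dusp1, Vegfa, Vegfd, Itgb4, Plau, Plaur, Mmp13, Egr1, Myc, Arc, Pou5f1, Utf1, Pdgfra, Twist1 and the collagens) were chosen after their values were seen. Alternatives covered normalization, filters, moderation, array weights, features, the replicate number, a fibroblast covariate and each array left out. Listed symbols were updated through RefSeq synonyms (5 symbols). Figures were drawn with matplotlib 3.10.9.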

Additional observations from a re-analysis of the deposited data

How the results depend on the processing

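The 4 lower genes remained called, and no other of the 9 was, under both further normalizations, both filters on dim genes, trended robust moderation, omission of zero-variance genes, array weights, averaged features and a fit of all features. Calls over all genes were 1848 as reported, 2982 after cyclic loess and 3234 after quantile normalization, where 45.9% of them were higher against 32.3% as reported. Without moderation 1 of the 9 genes (Fosb) and 294 genes in all passed. With the replicate number as a block, which leaves 1 residual degree of freedom, 0 of the 9 and 0 in all passed by limma (4 and 3827 at an unadjusted p under 0.05). The numbers do not pair the samples by any label, and deviations of same-numbered arrays correlated at -0.26 and 0.18. The 2 wild-type arrays deviate by equal and opposite amounts, so these correlations cannot settle whether cultures were paired. With the fibroblast marker mean as a covariate, which differs between the groups itself, 0 of the 9 and 0 in all passed (3 and 1295 unadjusted), Fosl1 turned to -0.30 and Jund to -0.33; the cause was not tested. With 1 array left out, fewer arrays gave 0 to 2 of the 9 genes and 0 to 963 in all; without wild-type replicate 2 both counts were 0 (4 and 4411 unadjusted). Over these fits Fosl1 ranged from -0.03 (without Mkl2-/- replicate 2) to 0.035. The rises of any of the 9 genes numbered 0 throughout.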
